A study of Mus musculus with 25 samples.

Results

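The Neat1 and Frmd8os locus was followed through chromosome contact maps of mouse fibroblasts, cells under reprogramming and embryonic stem (ES) cells. Its members were chosen by name: every 10 kb bin that the submitters annotated with Neat1 or Frmd8os in the 2 interaction lists of TKO cells. The rule found 1 bin, chr19:5840001-5850000 (mm10), which carries both names, out of 144091 bins that occur in any of the 9 lists and 4033 on chromosome 19. The 9 lists hold 39 partner bins of this bin. The locus was proposed with the contact values of ES and TKO cells at 0 h known, so that contrast is described here without a test. The comparison of MEF with ES shares the ES libraries with it, and the comparison of 0 h with 24 h shares the TKO 0 h libraries.

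Neat1 is a long noncoding RNA gene whose transcripts form the scaffold of paraspeckles, nuclear bodies that hold RNA-binding proteins such as SFPQ and NONO. It lies beside Malat1, the gene of another abundant nuclear RNA, which gathers in nuclear speckles. Frmd8os is annotated as the opposite-strand transcript of Frmd8, whose FERM-domain protein binds the iRhom proteins that control shedding of membrane proteins. Acetylation of histone H3 at lysine 27 (H3K27ac) marks active promoters and enhancers, and KLF4 is a zinc finger factor of the pluripotency network.

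The series used 25 libraries in 9 groups. Reprogrammable mouse embryonic fibroblasts (MEF) came from rtTA3-OKSM embryos at E13.5, heterozygous for an Oct4-GFP reporter, the OKSM cassette and rtTA3, and were collected at passage 3. In these cells doxycycline (dox) induces the OKSM factors. Bulk cultures were taken at day 3, and cells sorted for the surface marker SSEA1 at day 6, both with dox and ascorbic acid. ES cells were the V6.5 line in 2i medium. TKO cells, an abbreviation the labels do not expand, were V6.5 cells in 2i, either without dox (0 h) or with dox for 24 h. HiChIP, which enriches a contact library with an antibody, was done for H3K27ac (2 MEF, 2 ES, 3 TKO 0 h and 3 TKO 24 h libraries) and for KLF4 (3 day 3, 4 day 6 and 4 ES libraries). Hi-C without an antibody was done in 2 MEF and 2 ES libraries. HiChIP libraries held 48.7 M to 181 M contacts (M stands for 1000000), and the listed Hi-C pairs summed to 5.58 M to 10.02 M counts per library. No expression was measured in these libraries, so the labelled cell types were not checked against marker genes. Nothing in the labels says whether libraries of a group came from separate cultures, so p-values measure the spread between these libraries, which may be technical. ES KLF4 replicates 1 and 2 stood apart from replicates 3 and 4, and results that rest on them are given both ways.

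In the RefSeq annotation of GRCm38.p6, the same assembly, Neat1 covers chr19:5824708-5845480 and is transcribed from the minus strand. Its 5′ end lies in the bin studied, and its body runs on through the neighbouring bins that start at 5820001 and 5830001. The submitters' annotation gives the bin an H3K27ac peak in TKO cells at both 0 h and 24 h. Malat1 covers chr19:5795690-5802672 on the minus strand, with its 5′ end in the bin chr19:5800001-5810000. Frmd8 covers chr19:5850974-5875269, with its 5′ end in the bin chr19:5870001-5880000, which it shares with Slc25a45, a gene of the mitochondrial carrier family. Below, the Malat1 side means lower coordinates and the Frmd8 side higher ones.

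Promoter windows of the 2 genes that anchor the main contacts on either side are printed because the KLF4 libraries recorded contacts there. They hold 250 bases before the start that the RefSeq promoter set uses for each gene (GRCm38.p6, minus strand, 5′ to 3′). For Frmd8 that start lies inside the gene span given above, which ends at 5875269, while the window begins at 5875209. Capitals mark a match to GGGNGTGG, a form of the motif KLF4 is known to bind, searched as GGGNGTGG and CCACNCCC.
Malat1, chr19:5802673-5802922: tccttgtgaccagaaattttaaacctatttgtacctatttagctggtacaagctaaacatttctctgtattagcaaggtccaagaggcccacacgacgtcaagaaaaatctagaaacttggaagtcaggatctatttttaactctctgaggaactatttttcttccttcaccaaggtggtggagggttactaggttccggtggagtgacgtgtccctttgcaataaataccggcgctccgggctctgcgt
Frmd8, chr19:5875209-5875458: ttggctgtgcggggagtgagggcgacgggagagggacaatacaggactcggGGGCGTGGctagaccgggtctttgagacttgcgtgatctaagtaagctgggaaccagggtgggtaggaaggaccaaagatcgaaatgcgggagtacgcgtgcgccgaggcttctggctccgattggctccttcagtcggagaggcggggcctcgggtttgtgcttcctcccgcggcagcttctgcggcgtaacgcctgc
The Frmd8 window holds 1 match, 199 bases before the start used for the window, and the Malat1 window holds 0. Of 32851 RefSeq windows of this length, 15.9% hold the motif. GC content was 44% in the Malat1 window and 62.8% in the Frmd8 window. A match describes letters only.

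All 39 partner bins lay between 5480001 and 6280000 on chromosome 19. They fell inside 1 topological domain, chr19:4440001-6400000 (1.96 Mb), which the authors' domain lists give with the same edges in MEF and ES cells. A peak of H3K27ac in TKO cells was annotated in 31 of the 39 partner bins. Only bins that occur in a TKO H3K27ac list carry this annotation, here 38 of the 39. The share with a peak over all such bins was not computed, so the count is not read as particular to this bin. All 9 lists held pairs of the bin with 3 partners, which span Malat1 and the gap toward Neat1. These are the bins that start at 5790001 (Malat1 3′ part), 5800001 (Malat1 5′ end) and 5810001 (between the genes). In MEF Hi-C the 3 pairs ranked 558th of 565, 585th of 662 and 287th of 662 among listed chromosome 19 pairs of the same distance. The 4 H3K27ac lists shared 9 partners, 6 on the Malat1 side and 3 on the Frmd8 side. Of the 39, 19 partners occurred in 1 list only, 17 of them in the ES H3K27ac list.

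The number of listed pairs differed between lists. H3K27ac pairs of the bin numbered 11 for MEF, 37 for ES cells, and 18 and 15 for TKO cells without and with dox. It had 7, 3 and 7 KLF4 pairs at day 3, day 6 and in ES cells, and 3 and 8 Hi-C pairs in MEF and ES cells. Listed pairs need not have a low false discovery rate (FDR). The authors' FDR was under 0.1 for 3 MEF, 8 ES, 7 TKO 0 h and 6 TKO 24 h H3K27ac pairs of the bin. That held for 2, 0 and 1 of the KLF4 pairs, and for 0 and 1 of the Hi-C pairs, in the same order. The share over all pairs was not computed. In ES cells the bin ranked 4th by number of H3K27ac pairs and 1st by summed strength among 1853 bins of chromosome 19 with a pair. In MEF it ranked 158th and 21st of 2312 bins. It ranked 90th and 5th of 2082 bins in TKO cells at 0 h. In Hi-C it ranked 1413th by pairs and 1848th by summed signal of 3223 bins in MEF, and 578th and 492nd of 2783 bins in ES cells. These counts depend on the threshold of each list. Keeping the stronger portion of each list by 1 count cutoff over all chromosomes left 6 MEF pairs, 9 ES pairs, 8 at 0 h and 7 at 24 h.

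H3K27ac contacts rose from MEF to ES cells on the Malat1 side. Of the bin's pairs, the one with the 5′ end of Malat1 had the largest fitted change with all libraries, but without MEF replicate 2 the pair with the 3′ part had a larger one (3.23 against 2.70 on the log2 scale). Strength is given as the authors' CPM, counts per 1000000 contacts of the same chromosome. The contact of the Neat1 bin with the Malat1 5′ bin, 40 kb away, measured 16.8 and 23.7 CPM in the 2 MEF libraries and 129 and 123 CPM in the 2 ES libraries. Both ES libraries lay above both MEF libraries. Group values were 20.3 ± 4.84 CPM (SD, n = 2) and 126 ± 3.94 CPM (SD, n = 2). In ES cells this was the strongest of 5461 listed H3K27ac pairs on chromosome 19, with 548 and 534 counts, at 49.7 times the count the authors' table expects for its distance. In MEF it ranked 128th of 5000.

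**Figure D1:**
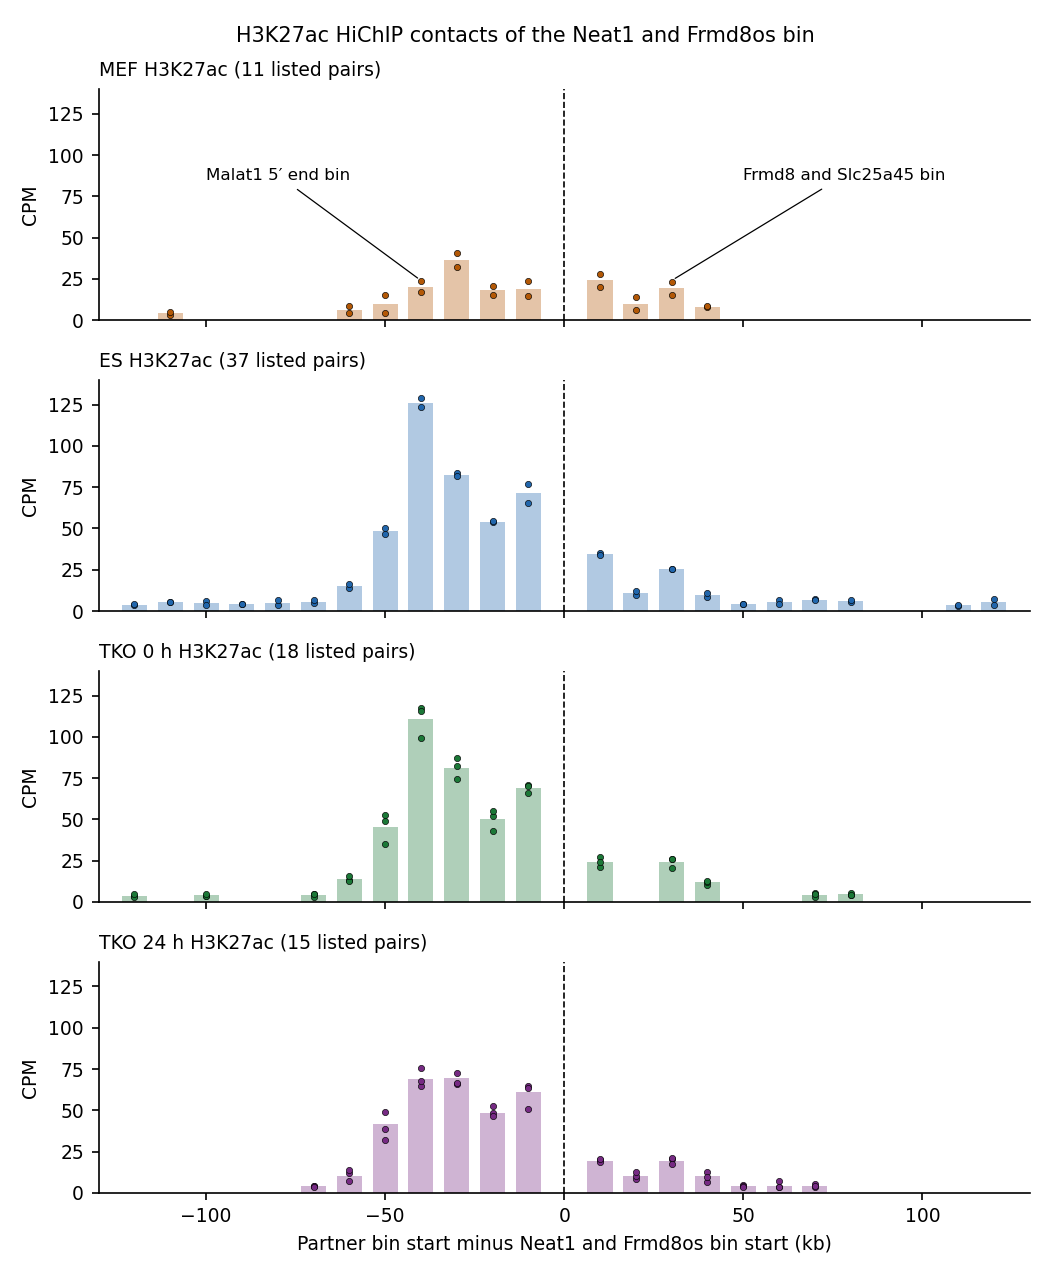
H3K27ac HiChIP strength (CPM, vertical axis) of pairs that join the Neat1 and Frmd8os bin to nearby bins, against the signed distance in kb (horizontal axis), in MEF, ES, TKO 0 h and TKO 24 h cells. Bars are group means and points single libraries. The Malat1 5′ bin at -40 kb stands at 20.3 CPM in MEF, 126 CPM in ES, 111 CPM at 0 h and 69.1 CPM at 24 h. Pairs further away are not drawn.

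Counts of pairs present in both lists were compared in edgeR by its quasi-likelihood test, and p-values were adjusted over all 17901 such pairs by the Benjamini-Hochberg method. At an adjusted p under 0.05, 32% of all tested pairs changed, 17.6% higher and 14.4% lower in ES. Of the 11 pairs of the Neat1 bin, all listed in ES too, 6 were higher in ES and 0 lower. The called pairs were 6 of the 7 on the Malat1 side and 0 of the 4 on the Frmd8 side, where 0 had an unadjusted p under 0.05 either and DESeq2 called 0. The median log2 fold change was 1.40 on the Malat1 side and 0.17 on the Frmd8 side, beside -0.04 over all tested pairs. The difference between the sides was not tested.

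The Malat1 5′ pair changed by 2.44 on the log2 scale (SE 0.14, adjusted p = 3.19e-20), or 5.44-fold relative to the typical pair. It ranked 54th of the 17901 by fold change. The pair with the Malat1 3′ bin rose from 4.49 and 15.002 CPM in MEF to 46.8 and 50.4 CPM in ES, a log2 change of 2.04 (SE 0.21, adjusted p = 3.54e-11). The MEF libraries of that pair differed more from each other than those of the Malat1 5′ pair, but neither reached the ES level. Its change was 1.59 without MEF replicate 1 and 3.23 without MEF replicate 2, and the call held in both.

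Pairs along the Neat1 body also rose. Contact with the bin at -10 kb went from 14.6 and 23.7 CPM to 65.2 and 77.2 CPM, a log2 change of 1.69 (SE 0.16, adjusted p = 2.30e-12). Contact with the bin at -20 kb, at the 3′ end of Neat1, went from 15.2 and 20.9 CPM to 53.9 and 54.6 CPM, a log2 change of 1.40 (SE 0.16, adjusted p = 1.35e-09). Neither pair overlapped between the groups. The intergenic bin at -30 kb was the strongest partner in MEF, at 32.0 and 40.7 CPM. It reached 83.3 and 81.6 CPM in ES, a log2 change of 1.00 (SE 0.13, adjusted p = 9.12e-09). The bin at -60 kb, beyond Malat1, rose from 4.49 and 8.29 CPM to 14.1 and 16.4 CPM. Its log2 change of 1.03 (adjusted p = 0.00223) lost the call without MEF replicate 1 (adjusted p = 0.0566) and with DESeq2 (adjusted p = 0.0858).

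On the Frmd8 side the values were closer. The pair with the Frmd8 and Slc25a45 bin, 30 kb away, measured 15.2 and 23.3 CPM in MEF and 25.2 and 25.7 CPM in ES, a log2 difference of 0.20 with a 95% interval from -0.17 to 0.57. The pair with the adjoining bin at +10 kb, inside Frmd8, measured 20.2 and 28.0 CPM in MEF and 35.1 and 33.7 CPM in ES (log2 0.32, adjusted p = 0.142). Scaling by contact totals moved the median of all pairs from -0.04 to 0.21 and the higher share of calls from 55.1% to 77.2%. Under that scaling the +10 kb pair was called higher (log2 0.57, adjusted p = 0.0105), and the other 3 pairs on the Frmd8 side were not.

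**Figure D2:**
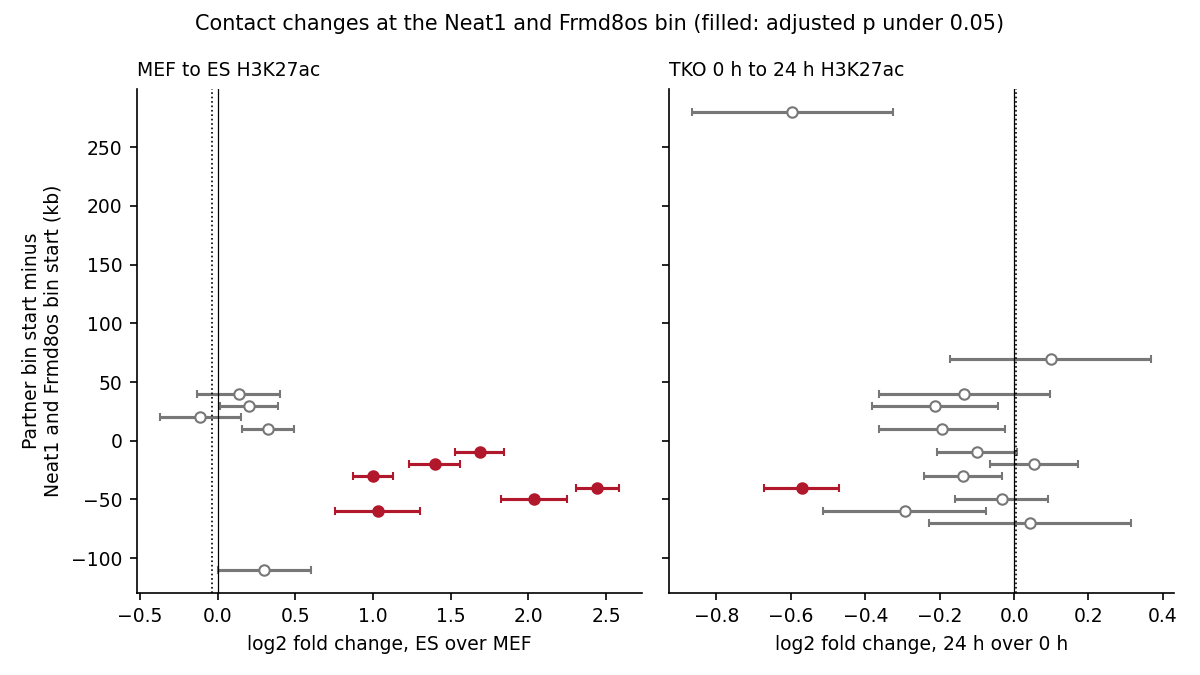
log2 fold change (horizontal axis) with its SE for each pair of the Neat1 and Frmd8os bin present in both lists, against signed distance in kb (vertical axis), for MEF to ES (left) and TKO 0 h to 24 h (right). Filled red points passed an adjusted p under 0.05 (edgeR) and the dotted line is the median of all tested pairs. On the left, 6 pairs at negative distances are filled. On the right, 1 is filled, the Malat1 5′ pair at -0.57.

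The balance between the sides was also seen within each library, where depth cancels. Over the 9 pairs shared by the H3K27ac lists, the Malat1 side took 67.0% of counts in MEF replicate 1 (95% Wilson interval 60.7% to 72.7%) and 68.9% in replicate 2 (64.7% to 72.9%). It took 85.1% in ES replicate 1 (83.4% to 86.6%) and 85.1% in replicate 2 (83.5% to 86.6%). The TKO libraries lay between 85.4% and 86.9%. These intervals cover counting error only. With 2 libraries a group an exact permutation test could not reach 0.05, so none was made.

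A HiChIP count rises with contact frequency and with the amount of the mark at either end, and these cannot be told apart in the lists. More cells with a contact and more contact per cell cannot be told apart either. Hi-C measures contacts without an antibody, and its lists held 3 pairs of the bin in MEF and 8 in ES. Neither listed the Frmd8 and Slc25a45 pair. On the authors' Hi-C signal scale, the Malat1 5′ pair stood at 21.7 and 29.7 in MEF and at 29.8 and 42.7 in ES. Its log2 difference was 0.52, with a 95% interval from -0.06 to 1.10 (edgeR adjusted p = 0.873). The pair with the Malat1 3′ bin stood at 17.4 and 25.5 in MEF and at 41.7 and 37.7 in ES (log2 0.89, unadjusted p = 0.00393, adjusted p = 0.483). Of the 3 pairs tested, 0 were called by edgeR and 0 by DESeq2, and 1 had an unadjusted p under 0.05 in edgeR. Over all 124204 Hi-C pairs tested, 0.0322% were called, of which 0.0209% of pairs were higher in ES and 0.0113% lower. An unadjusted p under 0.05 was found for 7544. The counts behind these 3 pairs were 12 to 46 per library. Whether the HiChIP and Hi-C changes differ was not tested.

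Between 0 h and 24 h of dox, the Malat1 5′ contact fell in TKO cells, and it was the only called pair of the bin. It measured 99.4, 117 and 116 CPM at 0 h and 64.9, 67.9 and 75.8 CPM at 24 h. Every 24 h library lay below every 0 h library. Group values were 111 ± 9.95 CPM (SD, n = 3) and 69.1 ± 1.77 CPM (SD, n = 2). TKO 24 h replicates 1 and 3 did not differ detectably beyond sampling noise and were counted as 1 sample. At 0 h the pair was the strongest of 5713 on chromosome 19, and at 24 h the 5th of 5218.

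The fit covered 67723 pairs, of which 2.8% were called, 0.601% higher and 2.2% lower at 24 h. Of the 12 pairs of the bin tested, 1 was called, and it was lower. The Malat1 5′ pair changed by -0.57 on the log2 scale (SE 0.10, edgeR adjusted p = 7.35e-06), a level of 0.67 times that at 0 h. It kept the call in all 12 alternatives run, which gave -0.68 to -0.53. Scaling by contact totals moved the share of higher calls among all pairs from 21.5% to 5.72%.

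The neighbours of that contact gave smaller values. The pair at -30 kb measured 74.4, 82.2 and 87.4 CPM at 0 h and 66.0, 72.6 and 66.6 CPM at 24 h (log2 -0.14, SE 0.10, adjusted p = 0.618). The pair with the Malat1 3′ bin measured 35.03, 52.8 and 48.8 CPM at 0 h and 31.9, 48.8 and 38.4 CPM at 24 h, and the groups overlapped (log2 -0.03, adjusted p = 0.949). The Frmd8 and Slc25a45 pair measured 20.5, 25.9 and 26.2 CPM at 0 h and 20.4, 17.2 and 21.3 CPM at 24 h (log2 -0.21, adjusted p = 0.642). The pair with Snx15, a sorting nexin gene 280 kb away, measured 6.40, 6.05 and 8.74 CPM at 0 h and 4.40, 3.67 and 5.08 CPM at 24 h. Those groups did not overlap, but the log2 change of -0.60 (SE 0.27) did not pass (adjusted p = 0.410), on counts of 8 to 19. The median over the 12 pairs was -0.14, beside 0.01 over all pairs tested.

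ES and TKO cells at 0 h overlapped in strength at 11 of the 16 contacts listed in both, and the ES list held more weak, distant ones. The cells also differ in the library preparation the labels describe, which cannot be told apart from the cells, and ES libraries were deeper (166 M to 168 M contacts against 80.5 M to 110 M). The lists shared 16 pairs of the bin, 43.2% of the ES list and 88.9% of the TKO list. Over these 16 the median log2 ratio of TKO to ES was -0.13, with 14 pairs lower and 2 higher in TKO. The median was 0.29 over all 58574 pairs in both lists and 0.21 over the 3760 on chromosome 19. Relative to all shared pairs the median for the bin was -0.42. Libraries did not overlap in 5 of the 16 pairs, of which 4 were lower in TKO, among them the Malat1 5′ pair and the adjoining +10 kb pair. The share without overlap over all 58574 pairs was not computed, so these counts are not read as particular to the bin.

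Contact with the Malat1 5′ bin stood at 129 and 123 CPM in ES and 99.4, 117 and 116 CPM in TKO at 0 h. The -30 kb pair had means of 82.5 and 81.3 CPM, and its libraries overlapped. The pair at +10 kb, inside Frmd8, had 35.1 and 33.7 CPM in ES and 20.9, 27.2 and 23.9 CPM in TKO. The pair with Dpf2, a BAF complex subunit gene at +70 kb, had 7.06 and 6.70 CPM in ES and 3.03, 5.62 and 4.5995 CPM in TKO. The pair with Cdc42ep2, a CDC42 effector gene at +80 kb, had 5.65 and 6.47 CPM in ES and 4.38, 5.19 and 4.14 CPM in TKO. Snx15 went the other way, with 4.71 and 4.62 CPM in ES and 6.40, 6.05 and 8.74 CPM in TKO. Of the 5 pairs without overlap, the Snx15 pair was the one with higher TKO values.

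The ES list held 21 pairs that the TKO 0 h list did not, of which 16 spanned 100 kb or more. Their mean strength ran from 3.38 to 10.95 CPM with a median of 4.32, beside the list threshold of 3 CPM in every library. Among the partners were bins of Rela, an NF-κB subunit gene (210 kb, 3.50 CPM), Kat5, a histone acetyltransferase gene (230 kb, 3.73 CPM), and Pola2, a DNA polymerase alpha subunit gene (120 kb, 5.47 CPM). Capn1, a calpain gene, was 170 kb away at 5.13 CPM, and Cfl1, the gene of the actin-severing protein cofilin, 350 kb away at 5.02 CPM. The 2 pairs listed in TKO alone were at +190 kb (3.54 CPM) and at +200 kb with Syvn1 (5.06 CPM), the gene of an endoplasmic reticulum ubiquitin ligase. These 2 are named because they were the only ones, with values known. An absent pair may lie under the threshold, so absence from a list is no measure of zero. With lists cut to equal length, 28 ES and 10 TKO 0 h pairs remained.

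Long contacts were most numerous in the ES list. Pairs of 100 kb or more numbered 20 for ES cells, 6 at 0 h and 1 at 24 h for TKO cells, and 1 for MEF. The share of all chromosome 19 pairs this long was not computed, and depth differed between the lists. The ES pairs with an FDR under 0.1 all lay within 60 kb of the bin. The median distance of all chromosome 19 pairs was 50 kb in the ES, TKO 0 h and MEF lists and 40 kb at 24 h. The MEF pair joined the Sssca1 bin 110 kb away, at 3.37 and 4.74 CPM. The longest pair, 430 kb to the bin of Ehd1, a gene of endocytic recycling, was listed in ES at 4.002 and 5.78 CPM and in TKO at 0 h at 4.72, 3.03 and 3.22 CPM. These ranges overlapped.

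KLF4 HiChIP lists joined the bin to 6 partners on the Malat1 side and 1 on the Frmd8 side, the Frmd8 and Slc25a45 bin, at day 3 and in ES cells. The same 7 partners were listed in both. At day 6 the list kept 3 of them, the bins at -50, -40 and -30 kb. No KLF4 pair of the bin spanned more than 60 kb.

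**Figure D3:**
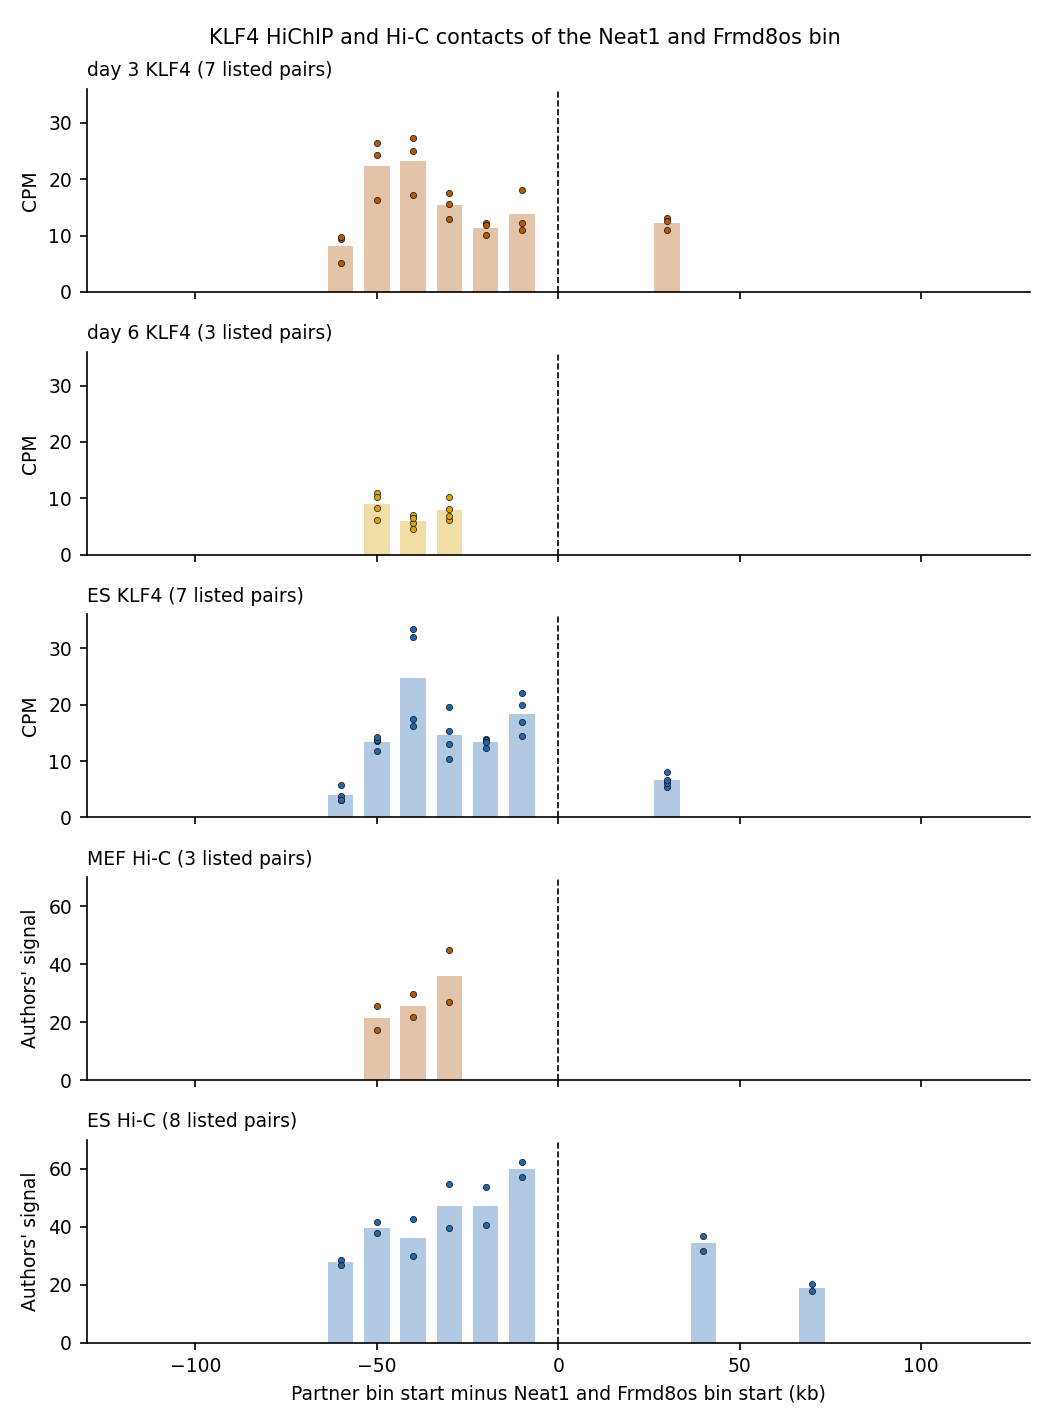
KLF4 HiChIP strength (CPM) at day 3, day 6 and in ES cells, and Hi-C signal (the authors' scale) in MEF and ES cells, for pairs of the Neat1 and Frmd8os bin against signed distance in kb. Bars are group means and points single libraries. At -40 kb the 4 ES KLF4 libraries split into values of 16.3 and 17.5 CPM and of 33.5 and 32.0 CPM.

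The KLF4 contact with the Malat1 5′ bin measured 24.9, 27.3 and 17.3 CPM at day 3. At day 6 it measured 4.55, 7.13, 5.67 and 6.52 CPM, below every day 3 library. In ES cells replicates 1 and 2 gave 16.3 and 17.5 CPM, and replicates 3 and 4 gave 33.5 and 32.0 CPM. Each of these ES pairs of libraries agreed within sampling noise over all pairs and was counted as 1 sample, which gave 24.8 ± 11.2 CPM (SD, n = 2). By group mean this contact was the strongest of 2220 KLF4 pairs on chromosome 19 in ES cells, the 11th of 2259 at day 3 and the 312th of 660 at day 6. The ES rank did not hold in replicate 1, where the bin's pair at -10 kb was stronger (19.9 against 16.3 CPM).

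From day 3 to day 6, 2571 pairs were tested and 5.33% called, 1.32% higher and 4.01% lower at day 6. Of the 3 pairs of the bin, 2 were lower at day 6. The Malat1 5′ pair changed by -1.29 on the log2 scale (SE 0.21, edgeR adjusted p = 1.57e-05), and the Malat1 3′ pair by -0.72 (SE 0.20, adjusted p = 0.0174). The 3′ pair measured 26.5, 24.3 and 16.3 CPM at day 3 and 10.9, 10.2, 6.24 and 8.24 CPM at day 6. The Malat1 5′ call held in all 11 alternatives. The 3′ call was lost with DESeq2 and without day 3 replicate 2, day 6 replicate 3 or day 6 replicate 4. Contact totals as the scale moved the median of all pairs from 0.02 to -0.58, and the higher share of calls from 24.8% to 0.377%. On that scale all 3 pairs of the bin were called lower, the -30 kb pair among them (-1.05, adjusted p = 0.000148, against -0.45 and 0.247). So were 1584 of all 2571 pairs, and the 3 calls are not read as particular to the bin. Day 6 cells were sorted and day 3 cells were not, and sorting cannot be told apart from time. The 4 day 6 libraries did not differ detectably beyond counting noise. Since no pair of them differed, the rule for summing libraries left them as 4 samples. The p-values of comparisons with day 6 may therefore be too small.

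From day 6 to ES, 2076 pairs were tested and 3.37% called, 2.6% higher and 0.771% lower in ES. Of the 3 pairs of the bin, 1 was called, the Malat1 5′ pair, with the highest log2 change of all 2076 (1.60, SE 0.26, edgeR adjusted p = 0.000127). With ES replicates 1 and 2 alone the change was 0.89 and not called (adjusted p = 0.0787). The pairs at -50 and -30 kb changed by 0.19 (adjusted p = 0.701) and 0.51 (adjusted p = 0.234). Contact totals as the scale raised the higher share of all calls from 77.1% to 99.9%. All 3 pairs of the bin were then called higher, as were 1158 of all 2076 pairs.

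Day 3 was also compared with ES cells. Among 7387 pairs tested 7.2% were called, 3.02% higher and 4.18% lower in ES. Of the 7 pairs of the bin, 2 were lower in ES. The Frmd8 and Slc25a45 pair measured 10.9, 13.2 and 12.5 CPM at day 3 and 5.42, 6.10, 6.70 and 8.09 CPM in ES, with no overlap (log2 -0.83, SE 0.24, edgeR adjusted p = 0.0186). The pair at -60 kb measured 9.35, 9.82 and 5.21 CPM at day 3 and 3.16, 3.81, 5.67 and 3.08 CPM in ES, with overlap (log2 -0.90, SE 0.29, adjusted p = 0.0442). Neither call was stable. The first was lost with contact totals, with ES replicates 3 and 4 alone and without any 1 of the day 3 libraries or ES replicate 1. The second was lost with contact totals, with the replicate block (log2 -0.77, adjusted p = 0.216), with either pair of ES libraries alone, and without day 3 replicate 1 or 2 or ES replicate 1, 2 or 4. The pair with the Malat1 3′ bin measured 26.5, 24.3 and 16.3 CPM at day 3 and 13.54, 13.7, 11.8 and 14.3 CPM in ES, with no overlap, and was not called (log2 -0.58, adjusted p = 0.0643). The Malat1 5′ pair changed by 0.25 (SE 0.21, adjusted p = 0.569). Against day 3, ES replicates 3 and 4 alone gave 0.69 (adjusted p = 0.00935) and ES replicates 1 and 2 alone gave -0.43 (adjusted p = 0.361). The 3 KLF4 comparisons share libraries in pairs.

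A ratio inside each library compares the Malat1 5′ pair with its neighbour at -30 kb, the intergenic bin, whatever the depth. In H3K27ac lists the ratio of counts was 0.526 and 0.583 in MEF, 1.55 and 1.51 in ES. It was 1.33, 1.43 and 1.33 at 0 h and 0.983, 0.934 and 1.14 at 24 h of dox in TKO cells. These 4 groups did not overlap. Against the Malat1 3′ pair instead, the ratio was 3.75 and 1.58 in MEF and 2.75 and 2.45 in ES, which overlapped. With that 3′ pair, TKO cells gave 2.84, 2.22 and 2.38 at 0 h, which overlapped ES and MEF. At 24 h they gave 2.03, 1.39 and 1.98, below every 0 h value. In KLF4 lists the ratio to the -30 kb pair was 1.60, 1.56 and 1.33 at day 3, 0.556, 1.14, 0.556 and 0.95 at day 6, and 1.57, 1.35, 1.71 and 2.08 in ES. All day 6 values were below all day 3 and ES values. In Hi-C it was 0.484 and 1.11 in MEF and 0.543 and 1.08 in ES, and the groups overlapped. Contact with the Malat1 5′ bin exceeded the nearer bin in ES H3K27ac, TKO 0 h, day 3 KLF4 and ES KLF4 in every library.

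**Figure D4:**
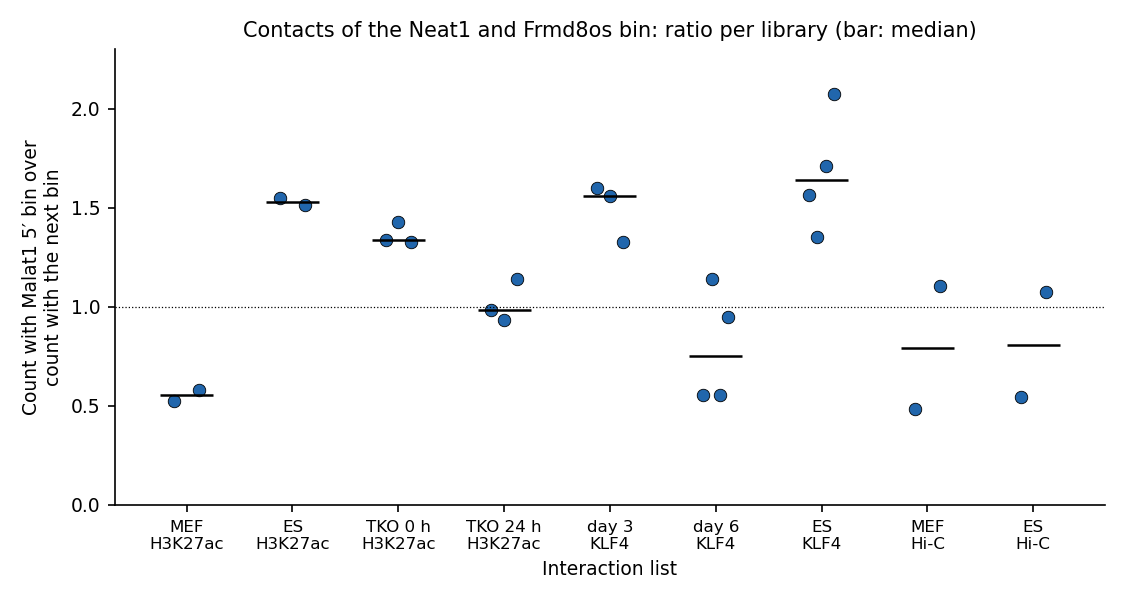
Count of the Neat1 and Frmd8os bin with the Malat1 5′ bin divided by its count with the next bin toward Neat1 (vertical axis, linear), for each library of the 9 lists (horizontal axis). Points are libraries, bars medians, and the dotted line marks a ratio of 1. MEF H3K27ac libraries lie at 0.526 and 0.583 and ES H3K27ac libraries at 1.55 and 1.51.

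Other genes give the setting. Of 25 listed genes around the locus, 24 had an annotated bin. Their pairs, those of the Neat1 bin left out, gave 93 tests from MEF to ES H3K27ac, of which 8 were higher and 10 lower, with a median log2 change of -0.07, beside 17.6% of all pairs higher and 14.4% lower. DESeq2 called 3 higher and 2 lower. Scaling by contact totals gave 13 higher and 3 lower, with a median of 0.18 beside 0.21 over all pairs. Of all 17901 pairs, that scaling called 4831 higher and 1426 lower. Malat1 itself had 4 of 8 other pairs higher and 0 lower, and Frmd8 had 1 of 11 higher and 1 lower. Pairs of Sssca1 had 3 of 8 lower and 0 higher. From 0 h to 24 h the neighbours had 117 pairs tested, with 0 higher and 1 lower by edgeR, 4 at an unadjusted p under 0.05, and 0 by DESeq2. DESeq2 gave no adjusted p for 63028 of all 67728 pairs here, so its 0 says little. In the 3 KLF4 comparisons the neighbours had 44, 14 and 21 pairs tested from day 3 to ES, day 3 to day 6 and day 6 to ES. In each, 0 were called by edgeR or DESeq2, and 3, 1 and 1 had an unadjusted p under 0.05 in edgeR. DESeq2 gave no adjusted p for 2578 of all 7387, 1105 of all 2591 and 1813 of all 2079 pairs in these. Contact totals as the scale gave 10 lower from day 3 to day 6 and 9 higher from day 6 to ES. Over all pairs that scale gave 1584 lower of 2571 and 1158 higher of 2076. In Hi-C 101 pairs were tested with 0 called by either tool and 9 at an unadjusted p under 0.05 in edgeR.

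Genes of paraspeckle proteins lie elsewhere in the genome, and 17 of 18 listed had an annotated bin. From MEF to ES they had 42 pairs tested, with 10 higher and 2 lower and a median log2 change of 0.30, beside 28.6% of their pairs called and 32% of all pairs. Contact totals gave 21 higher and 1 lower, beside 4831 higher and 1426 lower of all 17901 pairs. DESeq2 gave 5 higher and 1 lower. Ewsr1, an RNA-binding protein gene, had 3 of 3 tested pairs higher, Hnrnpa1 2 of 7, and Tardbp 1 of 1. Sfpq, a core paraspeckle protein gene, had 0 pairs to test. From 0 h to 24 h, 126 pairs were tested and 0 called by edgeR and by DESeq2, with 13 at an unadjusted p under 0.05 in edgeR. Since DESeq2 left most pairs of this comparison without an adjusted p, its 0 says little. Contact totals gave 2 lower. The list had 2 higher and 2 lower of 17 from day 3 to ES, beside 3.02% and 4.18% of all pairs, and 0 in either direction by DESeq2. It had 0 called by both tools of 6, 5 and 35 in the comparisons of day 3 with day 6, day 6 with ES, and Hi-C, with 1, 1 and 0 at an unadjusted p under 0.05 in edgeR. Contact totals gave 4 lower of 6 and 3 higher of 5 in the first 2 of these, beside 1584 of 2571 and 1158 of 2076 over all pairs. The DESeq2 counts of 0 in the KLF4 comparisons leave out pairs without an adjusted p.

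By the number of listed pairs over the 9 lists, on a log2 scale with 1 added, 5 of 500 other genes of chromosome 19 came closest to the Neat1 bin. Avpi1 was nearest, at a Euclidean distance of 1.28, with 13, 21, 19 and 16 H3K27ac pairs in MEF, ES, TKO 0 h and TKO 24 h. Lrrn4cl followed at 1.47, with 11, 21, 28 and 23 pairs. B3gat3, Eml3 and Rom1 share 1 bin and came next at 1.49, with 8, 19, 16 and 15 pairs. The lists share depth and thresholds within an assay, so likeness of counts is a description.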

How the data were processed

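Per the labels, 25 libraries of fixed mouse cells were made by HiChIP (H3K27ac or KLF4) or Hi-C. Per the submitters' processing notes, reads were aligned to mm10 with Bowtie2 2.2.3; the contact caller and its test are not given in the sources used here. The authors deposited 1 list per group of 10 kb bin pairs, with raw counts per library, CPM, a ratio of count to the count expected at that distance, a p-value and an FDR per pair. From the values, the deposited HiChIP CPM is per 1000000 contacts of the same chromosome. The deposited Hi-C column named CPM was treated as a signal, since its scaling constants are not explained. From the values, HiChIP lists hold p-values under 0.1 and CPM over 3 (KLF4: in replicates 1 and 2), and Hi-C lists p-values under 0.01 and signal over 15. The authors' domain lists carry a deposited score, not used here beyond the edges.

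Counts of pairs in both lists were tested with edgeR 4.0.16 (R 4.3.3; filterByExpr, TMM on contact totals, in Hi-C on count sums), so results are conditional on being listed in both. Libraries of a group whose counts agreed within sampling noise (chi-square p of 0.05 or more over pairs of at least 6 CPM, where another pair of the group differed) were summed. TKO 0 h replicates 2 and 3 fell just under that threshold and stayed separate. The alternatives were contact totals, DESeq2 1.42.0, no filter, separate libraries with and without a replicate block, and leaving out each library. Leaving out the ES KLF4 libraries by pairs, and joining TKO 0 h replicates 2 and 3, were chosen after seeing the data. The script was tested on simulated data with 200 changed pairs. The members, gene lists and tests were chosen with earlier results of these data known. Named pairs were those called, in every H3K27ac list, among the 5 strongest or the longest of a list; named genes were those of partner bins in 2 or more lists, and members of the neighbour and paraspeckle lists. A named partner gene is not reported here. RefSeq positions and promoters are of GRCm38.p6.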

Additional observations from a re-analysis of the deposited data

How the results depend on the processing

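The Malat1 5′ pair kept its direction and its side of the threshold in all 8 alternatives from MEF to ES (2.31 to 2.70 on the log2 scale), all 12 from 0 h to 24 h and all 11 from day 3 to day 6. Counts of called pairs of the bin moved in the KLF4 comparisons. From day 3 to ES, 2 became 0 with contact totals, 1 with the replicate block (the -60 kb pair was lost), 1 (higher) with ES replicates 3 and 4 alone, 1 (lower) with ES replicates 1 and 2 alone, and 0 to 2 without single libraries. From day 3 to day 6, 2 became 3 with contact totals, 1 with DESeq2 and 1 to 2 without single libraries. From day 6 to ES, 1 became 3 with contact totals, 2 with ES replicates 3 and 4 alone and 0 with replicates 1 and 2 alone. DESeq2 gave no adjusted p for the called pairs from day 3 to ES and day 6 to ES. It gave none for 2578 of all 7387 and 1813 of all 2079 pairs in these comparisons, so the gap is not particular to the bin. The cause for single pairs was not tested. Directions turned for pairs that were not called. With contact totals these were the +20 kb pair from MEF to ES (-0.11 became 0.14) and, from 0 h to 24 h, the -20 kb pair (0.05 became -0.05), the +70 kb pair (0.10 became -0.00513) and 1 other. Among the pairs followed under every alternative they were the Malat1 3′ pair from 0 h to 24 h (-0.03 became 0.000799, 0.0193, 0.0695 and 0.0788 in 4 fits without single libraries, whose range was -0.232 to 0.0788), the Malat1 5′ pair from day 3 to ES (-0.43 with ES replicates 1 and 2 alone), and the -30 kb pair from day 3 to ES (0.02 became -0.43 with those libraries alone and -0.14, -0.05 and -0.03 in 3 fits without single libraries, whose range was -0.136 to 0.187). The median TKO to ES ratio of -0.13 became -0.0492 per 1000000 contacts of the whole library, -0.42 relative to all shared pairs, and -0.207 to -0.0822 without single libraries. With 1 count cutoff the bin kept 6 pairs in MEF, 9 in ES, 8 at 0 h, 7 at 24 h, 0 at day 6 and 1 in MEF Hi-C. Lists of equal length left 10 at 0 h.

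Replicate numbers did not pair the libraries (correlations of same-numbered deviations from -0.06 to 0.04 over 17 pairs). With the replicate block, calls of the bin were 6 from MEF to ES, 1 from 0 h to 24 h, 1 from day 3 to ES, 2 from day 3 to day 6, 1 from day 6 to ES and 0 in Hi-C. Over all pairs, edgeR calls and their range without single libraries were as follows. MEF to ES had 5721, and 3333 without MEF replicate 2, with 2396 by DESeq2. From 0 h to 24 h there were 1894, and 1132 without 24 h replicate 3, with 3202 by contact totals and 278 by DESeq2. Day 3 to ES had 532, and 135 without day 3 replicate 3, with 284 by contact totals, 64 by DESeq2, 298 with the block and 243 with ES replicates 1 and 2 alone. Day 3 to day 6 had 137, and 69 without day 6 replicate 4, with 1590 by contact totals, 39 by DESeq2 and 89 with the block. Day 6 to ES had 70, and 11 without day 6 replicate 2, with 1159 by contact totals, 14 by DESeq2, 127 with the block, and 155 or 22 with ES replicates 3 and 4 or 1 and 2 alone. Hi-C had 40, with 3 to 113 without single libraries, 0 by DESeq2 and 74 with the block. Pairs listed with 5 to 20 counts per library give wide intervals, which limits the long contacts most.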
